A study of Rattus norvegicus with 12 samples.

Results

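The cytosolic ribosomal protein genes encode the proteins that form, with ribosomal RNA, the small and the large subunit of the ribosome outside mitochondria. They were taken from the count tables of a study of rat hearts by symbol: names built as Rpl or Rps and a number, with at most 1 letter a, x, l or y and 1 further digit, and the names Rpsa, Rplp0, Rplp1 and Rplp2. Of 95 such names among the 34322 genes of the tables, 87 had the required 10 counts or more over all libraries, and these are the members described here. The member nearest to that minimum was Rpl30l1 with 10 counts in all, and the nearest names below it were Rpl22l2 and Rps19l1 with 5 counts each. Of the 87, 35 carry names of the small subunit and 52 of the large subunit, and 14 carry names of paralogs or of like loci. The members lie on 20 chromosomes. Fau, Rack1 and Rpl36al also encode cytosolic ribosomal proteins, but their names fall outside the rule, and they are given as separate genes. The genes Rps9, Rps19, Rpl35a and Rpl37a were not analysed here under those names.

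The study sequenced heart RNA, depleted of ribosomal RNA, of wild-type male rats of the SD strain. There were 4 groups of 3 libraries: sorafenib for 14 days, deionized water for 14 days, sorafenib for 28 days and deionized water for 28 days. Sorafenib, a cancer drug that inhibits RAF kinases and several receptor tyrosine kinases, was given by gavage once daily at 50 mg per kg, and the water groups received an equal volume. No age of the rats is given, and the labels do not say that every library came from a rat of its own, so a p-value here speaks of the variation among libraries, which may be technical. The heart was sampled as bulk tissue, so fewer cells of a type and less RNA per cell cannot be told apart.

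Ribosomal protein genes are transcribed at high and matched rates, and their messenger RNAs typically begin with a cytosine followed by a run of pyrimidines, the 5′ terminal oligopyrimidine or TOP tract. Through this tract the kinase mTOR and the RNA-binding protein LARP1 control their translation and stability together with those of elongation factors. Some ribosomal proteins have paralogs that replace them in certain tissues. Rpl3l, which takes the place of Rpl3 in heart and skeletal muscle, is the best known of these, while Rps27l is a target of p53 in human and mouse cells and Rpl22l1 is held down by its partner Rpl22 in mice.

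The starts of the members on which the results below turn are shown to let the reader compare the annotated start of each paralog with that of its partner. They are 40 bases long, with 20 bases before and 20 from the start annotated by RefSeq on the assembly GRCr8, read 5′ to 3′ on the strand of the transcript. Capitals mark a C followed by at least 4 letters that are each C or T, where this run begins within 5 bases of the start. Pyrimidines just before the marked C stay in small letters, as in Rpl35, Rpl22 and Rps27. The marks therefore need not show where a pyrimidine stretch begins or its full length. Rps27l, Rpl22l1 and Rpl3l are the paralogs, each followed by its partner. Rpl35, Rpl38, Rpl27a and Rps28 differed most between the days among members at 10 CPM or more, and Rplp1 and Rps15a were among those that differed least.
Rps27l, chr8:76443638-76443677, plus strand: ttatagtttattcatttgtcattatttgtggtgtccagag
Rps27, chr2:177964587-177964626, minus strand: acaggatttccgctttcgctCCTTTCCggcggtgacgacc
Rpl22l1, chr2:113683176-113683215, plus strand: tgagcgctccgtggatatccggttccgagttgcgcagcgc
Rpl22, chr5:168117941-168117980, plus strand: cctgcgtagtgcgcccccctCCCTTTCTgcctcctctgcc
Rpl3l, chr10:14258426-14258465, plus strand: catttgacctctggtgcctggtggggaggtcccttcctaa
Rpl3, chr7:113507971-113508010, minus strand: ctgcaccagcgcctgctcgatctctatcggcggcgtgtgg
Rpl35, chr3:43165902-43165941, minus strand: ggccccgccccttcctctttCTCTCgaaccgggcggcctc
Rpl38, chr10:100200415-100200454, plus strand: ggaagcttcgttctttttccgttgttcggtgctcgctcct
Rpl27a, chr1:172974553-172974592, plus strand: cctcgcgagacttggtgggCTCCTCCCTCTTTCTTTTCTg
Rps28, chr7:15311314-15311353, minus strand: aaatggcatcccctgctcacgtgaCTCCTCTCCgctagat
Rplp1, chr8:71290853-71290892, minus strand: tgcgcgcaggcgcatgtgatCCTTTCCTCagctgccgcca
Rps15a, chr1:181860265-181860304, minus strand: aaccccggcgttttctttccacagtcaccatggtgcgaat

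A start sequence was found for 66 of the 87 members, and 39 of them (59.1%) held such a run. It was found in 4656 of the 27457 genes of the sequence table (17.0%), and in 15 of 60 mitochondrial ribosomal protein genes (25%). Where a gene had several annotated starts the first listed was used, and the other strand was not searched. Among the 58 members with standard names the share was 63.8%, and among 8 with paralog or like-locus names it was 25%. The windows of Rps27l, Rpl22l1 and Rpl3l hold no such run, and those of their partners Rps27 and Rpl22 do. The windows of Rpl3, Rpl38 and Rps15a hold none by this rule either. Whether the annotated start is where the transcript begins was not checked. A window without a run therefore does not show that a gene lacks a TOP tract.

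Total counts were between 13746366 and 26403196 in 11 libraries and 1036483 in sorafenib replicate 3 of day 28, where 1 count equals 0.836 CPM (counts scaled to the library's total and its TMM factor, which adjusts for composition). The members took 0.660% to 1.11% of all counts. The group means were 0.745% ± 0.0734 with sorafenib and 0.723% ± 0.0428 with water at day 14. At day 28 they were 0.964% ± 0.0870 with sorafenib and 0.992% ± 0.106 with water (SD, n = 3 each). Markers of heart muscle cells summed to between 98142 and 210322 CPM in the 12 libraries, so the labelled tissue is plain in all of them. Libraries of day 14 and day 28 stand in separate tables, and nothing in the labels tells the day from the table.

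Levels per kilobase of exon are used wherever members are compared with each other. The median member stood at 117 CPM per kilobase over the 12 libraries, against 4.24 for all genes tested. Rplp1, an acidic protein of the stalk that recruits elongation factors, was highest at 439 ± 71.2 CPM per kilobase (SD over 12 libraries). It was followed by Rpl10, a late-joining protein of the large subunit, at 389.6 ± 60.8, so the top pair differed by less than its spread. Rpl7, Rpl26 and Rps14 came next at 312 ± 55.1, 303 ± 70.9 and 302 ± 85.7. In the order of all members, 70 neighbouring pairs differed by less than 1.1-fold.

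The low end was formed by paralogs and by genes with a single exon. Rpl30l1 averaged 0.0144, Rpl39l 0.202 and Rpl5l1 0.311 CPM per kilobase, followed by Rps10l1 at 1.30 and Rps18l1 at 1.56. None of the 8 single-exon members (0) exceeded 14.7 CPM per kilobase, while the median of the 79 members with several exons was 127. Rpl37, a large-subunit protein of every ribosome, is annotated in these tables with 1 exon and averaged 4.21 CPM per kilobase. Reads that match several places were not counted under the default of the counting tool, and exons of 10 members overlap those of another gene, so levels of members with close copies are uncertain. Rps9l1 and Rps19l2, which have several exons, had 66.5 and 68.3 CPM per kilobase. Whether these rows hold the loci of Rps9 and Rps19, which have no rows here under those names, was not settled.

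**Figure D1:**
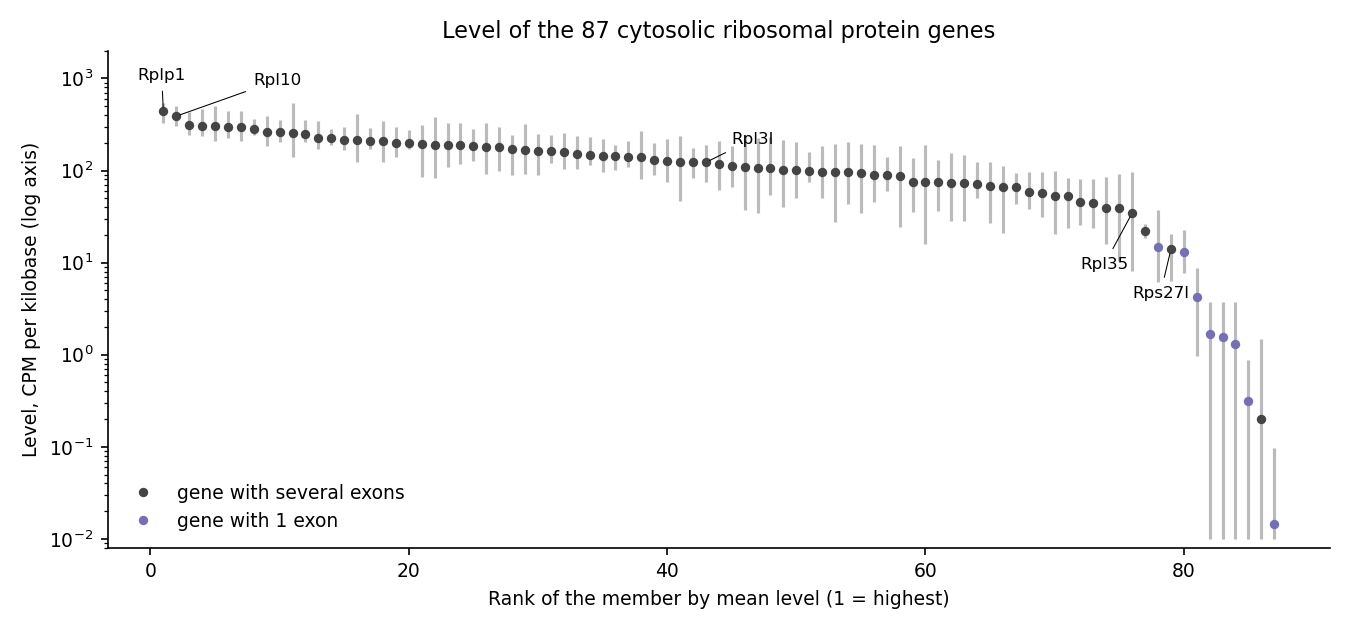
Mean level of each of the 87 members in CPM per kilobase (log axis), ordered by rank, with bars from the lowest to the highest of the 12 libraries, and bars cut at 0.01 where a library had no count. The 8 members with 1 exon stand among the 10 lowest, together with Rps27l and Rpl39l.

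With sorafenib no member passed the test at either day, and the family as a whole lay near water at day 14 and slightly below it at day 28. At day 14, 81 members were tested. The count past an adjusted p of 0.05 by edgeR's quasi-likelihood test was 0, as it was among all 17406 genes (0%). An unadjusted p under 0.05 came for 5 members on the higher side (6.17%, against 7.09% of all genes) and 2 on the lower side (2.47%, against 6.93%), together 8.64% against 14%. DESeq2, which called 392 genes in all, called 0 members. The median log2 fold change of the members was 0.04, against 0.00 over all genes, and 35 of 81 were negative (49.8% of all genes were).

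At day 28, 84 members were tested and again 0 passed, as among all 17021 genes (0%). DESeq2 called 256 genes in all and 0 members. The median log2 fold change was -0.22, against -0.00 over all genes, and 78 of 84 members were negative, where 50.2% of all genes were. An unadjusted p under 0.05 came for 7 members, all on the lower side (8.33%, against 7.83% of all genes on that side and 7.04% on the other). The groups did not overlap for 5 members, all lower with sorafenib (5.95%, against 11.9% of all genes on that side and 10.1% on the higher side). The shared sign was thus wide, and the share of members that parted from the replicate spread was near or under that of all genes.

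Single libraries set the size of that shift. Set against the water average at each day, the mean log2 level over the members was -0.38, -0.53 and 0.01 in sorafenib replicates 2, 3 and 4 of day 28, against -0.27, -0.07 and 0.34 in water replicates 2, 3 and 4. The medians over the members were -0.36, -0.35 and 0.02 in these sorafenib libraries, against -0.26, -0.07 and 0.33 in these water libraries. Sorafenib replicate 4 therefore lay inside the water range. Sorafenib replicate 3 is the shallow library, and by the median it lay beside replicate 2. The precursor of ribosomal RNA, Rn45s, took 1.255%, 1.64% and 0.286% of counts in sorafenib replicates 2, 3 and 4, against 0.380%, 0.537% and 0.361% in water replicates 2, 3 and 4. The mitochondrial ribosomal RNA mt-Rnr2 took 1.31%, 0.178% and 0.205%, against 0.0974%, 0.111% and 0.127% in the same libraries. The part of these remnants in the members' values was not tested. The median log2 fold change was -0.02 when water replicate 4 was left out. It was -0.13 with sorafenib replicate 2 removed, -0.33 with sorafenib replicate 4 removed and -0.32 with water replicate 2 removed. Over all 6 single left-out libraries, the shallow one among them, it lay between -0.33 and -0.02. With sorafenib replicate 3 and water replicate 4 both left out, a choice made after seeing the data, it was 0.02, so the direction turned. At day 14 the same means were -0.01, -0.08 and 0.33 in sorafenib replicates 5, 6 and 7, against -0.11, 0.02 and 0.09 in water replicates 2, 3 and 7.

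**Figure D2:**
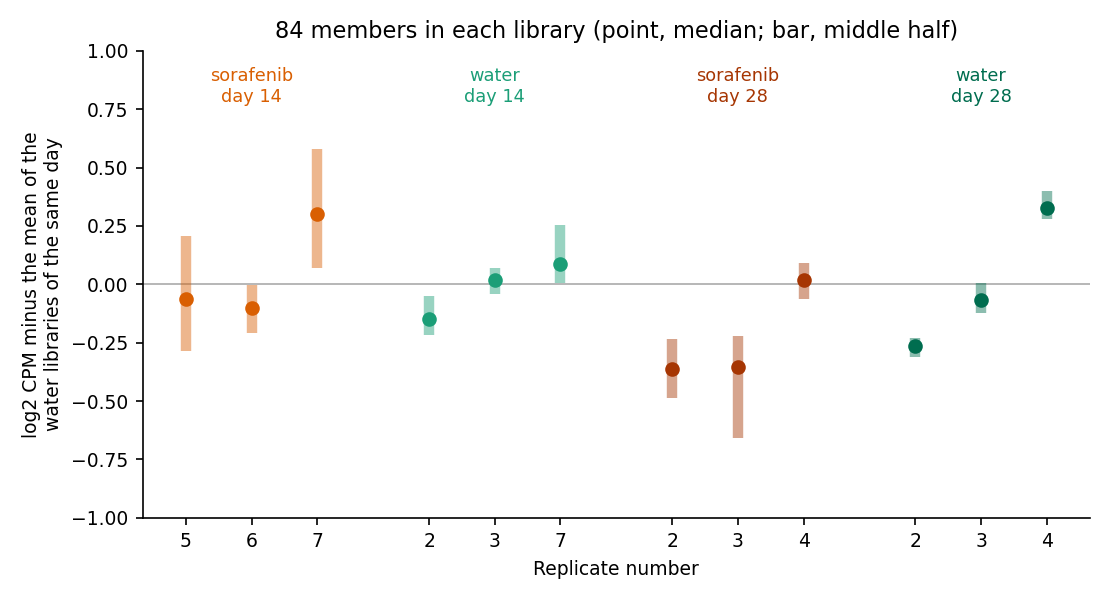
Log2 CPM minus the water average at each day, for the 84 members tested over all libraries, by library, with the median as a point and the range between the lower and the upper quartile as a bar. Sorafenib replicates 2 and 3 of day 28 lie lowest, water replicate 4 of day 28 lies highest, and the ranges of the groups overlap at both days.

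Among members at a mean of 10 CPM or more, the highest folds at day 14 were those of Rpl38, Rps9l1, Rplp2, Rps19l2 and Rps28. Rpl38, a large-subunit protein known from mice for its part in the translation of Hox messages, stood at 19.4, 8.57 and 19.2 CPM with sorafenib, against 11.5, 8.40 and 6.73 CPM with water. The groups overlapped, and its log2 fold change was 0.83 ± 0.32 (SE, adjusted p = 0.297). Rplp2, the partner of Rplp1 in the stalk, was at 39.6, 31.9 and 44.3 CPM with sorafenib, against 19.8, 26.3 and 31.5 CPM with water. All sorafenib libraries lay above the water libraries, by a margin of under 1 CPM, at 0.58 ± 0.19 (adjusted p = 0.241). Rps9l1, whose exons overlap those of another gene, had 0.64 ± 0.22, Rps19l2 had 0.45 ± 0.20 and Rps28 had 0.41 ± 0.21.

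The lowest folds at day 14 on the same floor were those of Rps27l, Rpl6, Rps2, Rps13 and Rpl30. Rpl6 stood at 98.4, 118 and 128 CPM with sorafenib, against 149, 141 and 145 CPM with water, with no overlap (-0.33 ± 0.14, adjusted p = 0.321). Rps2, a core protein of the small subunit, was at 211, 242 and 246 CPM with sorafenib, against 256, 293 and 301 CPM with water, also with no overlap (-0.28 ± 0.14, adjusted p = 0.419). Rps13 and Rpl30 had -0.27 ± 0.16 and -0.24 ± 0.17, and their groups overlapped. In all, 4 members lay wholly above and 4 wholly below water at this day (4.94% each), against 10.5% and 10.6% of all genes.

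Among members at 10 CPM or more, the lowest folds at day 28 belonged to Rps27l, Rps26, Rpl10l, Rpl22l1 and Rpl17. Rps26, which lies at the exit of messenger RNA on the small subunit, was at 45.3, 36.8 and 63.9 CPM with sorafenib, against 64.2, 68.6 and 100.8 CPM with water. The groups came within 1 CPM of each other without overlap, and the log2 fold change was -0.61 ± 0.22 (adjusted p = 0.282). Rpl22l1 was at 13.5, 21.7 and 20.4 CPM with sorafenib, against 26.1, 23.2 and 32.5 CPM with water (-0.57 ± 0.23, adjusted p = 0.301). Rpl17, at the opening of the tunnel through which new proteins leave, had -0.49 ± 0.19. Rpl10l, a single-exon paralog of Rpl10, had -0.59 ± 0.46 with wide overlap, and its sign turned without water replicate 4. Below 10 CPM, Rps10l1, a gene with 1 exon and 0 to 45 counts per library, had -1.32 ± 0.64.

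On the higher side at day 28 stood Rps4y2, Rps9l1, Rpl12, Rpl3 and Rpl5, with log2 fold changes between 0.10 and 0.42, and the groups overlapped for all 5. Rps4y2, a single-exon gene of the Rps4 family on chromosome 4 of mRatBN7.2, was at 21.2, 11.7 and 16.2 CPM with sorafenib, against 11.3, 16.8 and 11.5 CPM with water. The higher value of Rpl3 came from sorafenib replicate 3, at 184 CPM against 93.1 and 111 CPM in the other sorafenib libraries, and its sign turned without that library. The value of Rpl5 was 0.10 ± 0.18, and -0.01 without water replicate 2.

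**Figure D3:**
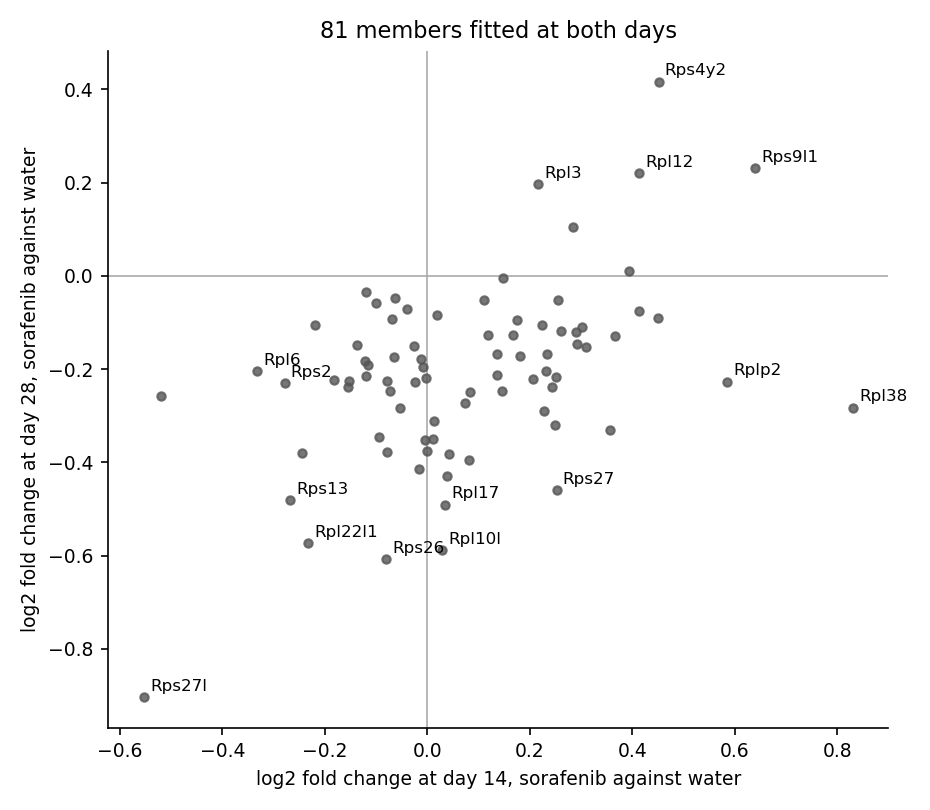
Log2 fold change of sorafenib against water at day 14 (horizontal) and day 28 (vertical) for the 81 members fitted at both days, with named members labelled. Most points lie below the horizontal line of 0, Rps27l lies lowest of those drawn at both days, and Rpl38 lies farthest right with a value below 0 at day 28.

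Averaged over both days in a fit of all 12 libraries, 1 of 84 members passed, Rps27l on the lower side, which is 1.19% of the members, against 2.41% of all 18174 genes on that side and 4.41% in either direction. On the higher side 0 members passed, against 2% of all genes. DESeq2 called 1764 genes in all, against 801 by edgeR, and among the members Rps27l alone. The median log2 fold change was -0.10, against -0.01 over all genes, and 60 of 84 members were negative (50.8% of all genes). Rps27l encodes a small-subunit protein closely like Rps27 and lies on chromosome 8 from 67562483 to 67567418 in mRatBN7.2, with 5 exons. At day 14 it stood at 9.31, 6.61 and 11.7 CPM with sorafenib, against 12.9, 13.9 and 13.8 CPM with water. At day 28 it stood at 7.08, 5.02 and 8.64 CPM with sorafenib, against 11.7, 14.3 and 16.2 CPM with water.

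All sorafenib libraries were below all water libraries of their day, which held for Rps27l as the 1 member of 84, while 3.36% of all genes were lower in this way at both days. The averaged log2 fold change was -0.74 ± 0.16 (SE, adjusted p = 0.0288), and the separate values were -0.55 ± 0.21 at day 14 and -0.90 ± 0.25 at day 28. In the shallow library its value rests on 6 counts, and without that library the average was -0.68 (adjusted p = 0.0378). The call was lost without any one of 7 libraries: sorafenib day 14 replicate 6, water day 14 replicates 2, 3 and 7, sorafenib day 28 replicate 2, and water day 28 replicates 3 and 4. It was also lost with both sorafenib replicate 3 and water replicate 4 of day 28 left out (-0.64, adjusted p = 0.0601). Over all single left-out libraries the adjusted p lay between 0.0215 and 0.0928 and the log2 fold change between -0.85 and -0.65.

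Next on the lower side, among members at 10 CPM or more, were Rpl22l1 at -0.42 ± 0.14 (adjusted p = 0.0916), Rps13 at -0.39 ± 0.14 (adjusted p = 0.116), Rps26 at -0.36 ± 0.17 and Rpl30 at -0.33 ± 0.18. The highest averaged values on the same floor belonged to Rps4y2 at 0.42 ± 0.16 (adjusted p = 0.131), Rps9l1 at 0.41 ± 0.15, Rpl12 at 0.29 ± 0.16, Rpl38 at 0.25 ± 0.23 and Rpl7a at 0.18 ± 0.17. None of these (0) passed.

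The difference of the sorafenib effect between the days, day 28 minus day 14, gave 0 calls among 84 members and among all 18174 genes (0%). DESeq2 called 5 genes in all and 0 members. An unadjusted p under 0.05 came for 2 members (2.38%, against 4.42% of all genes, and 2.16% on the lower side), Rpl38 at -1.14 ± 0.45 and Rplp2 at -0.84 ± 0.30. The median was -0.36, against -0.02 over all genes, and 78 of 84 members were negative (52.1% of all genes). The other named members with low values were Rps27 at -0.74, Rpl35 at -0.72 and Rpl10l at -0.65. The highest among members at 10 CPM or more were Rpl6 and Rpl7l1 at 0.09 each.

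A paralog and its partner were also set against each other within each library, as the ratio of counts per kilobase, which does not depend on scaling between libraries. The ratio of Rps27l to Rps27 was 0.283, 0.251 and 0.249 with sorafenib at day 14, against 0.585, 0.482 and 0.358 with water. At day 28 it was 0.0970, 0.103 and 0.111 with sorafenib, against 0.128, 0.172 and 0.135 with water. The sorafenib libraries lay below the water libraries at both days. The mean log2 difference was -0.65, a fold of 0.635. Its two-sided p by an exact permutation test of the labels within days was 0.005, the smallest these 400 relabellings can give, and 0.02 after adjustment over the 4 ratios tested.

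With 5 counts added in place of 0.5 the adjusted p was 0.06 by the same exact permutation test, with a difference of -0.55. Within 1 day the 3 against 3 design can give no p below 0.1. Rps27 at day 14 was at 14.4, 11.5 and 20.5 CPM with sorafenib, against 9.65, 12.6 and 16.8 CPM with water. At day 28 Rps27 itself was at 32.0, 22.6 and 34.2 CPM with sorafenib, against 40.2, 36.4 and 52.6 CPM with water, with no overlap (-0.46 ± 0.20, adjusted p = 0.315).

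Rpl22l1 to Rpl22 gave ratios of 1.47, 1.69 and 1.85 with sorafenib, against 2.23, 1.92 and 3.18 with water at day 14, with no overlap. At day 28 the ratios were 0.425, 0.871 and 0.569 with sorafenib, against 0.763, 0.897 and 0.704 with water, and the groups overlapped through the shallow library. The mean log2 difference was -0.46 (exact permutation p = 0.04, adjusted p = 0.08), and without that library it was -0.60 (adjusted p = 0.01). Over all single left-out libraries the adjusted p of the exact permutation test lay between 0.01 and 0.18.

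For Rpl3l to Rpl3 the ratio was 0.861, 2.30 and 1.90 with sorafenib, against 1.46, 1.72 and 2.25 with water at day 14. At day 28 it was 2.09, 0.744 and 2.24 with sorafenib, against 1.78, 2.02 and 2.30 with water. The muscle paralog thus exceeded its partner in every library but sorafenib day 14 replicate 5 and sorafenib day 28 replicate 3. Set against the water average of the day, markers of heart muscle cells had mean log2 levels of -0.43 and -0.73 there. These values were lower than in any other library, and their part in the ratio was not tested. The mean log2 difference of -0.31 did not pass (exact permutation p = 0.445, adjusted p = 0.515). Rpl39l had 0 to 13 counts per library beside 38 to 816 of Rpl39, too few for its ratio to be read. A count of 0 allows up to 3 counts, which is 0.142 to 2.51 CPM by library.

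**Figure D4:**
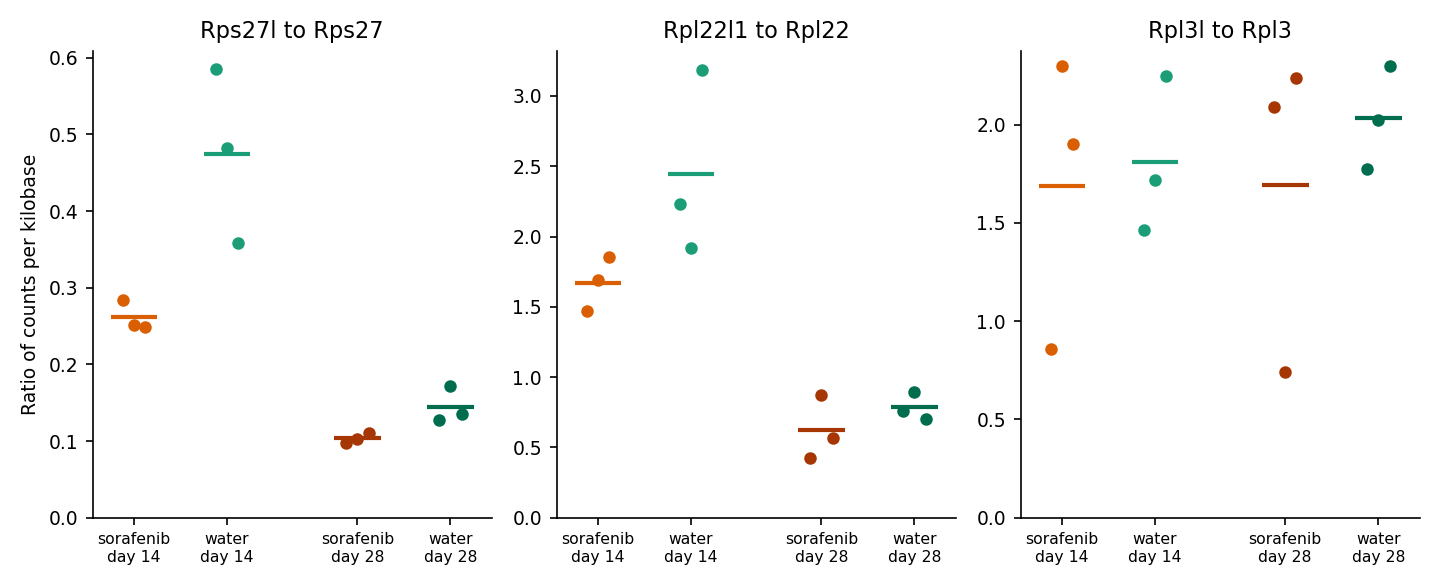
Ratio of counts per kilobase of Rps27l to Rps27, Rpl22l1 to Rpl22 and Rpl3l to Rpl3 in each library (points) with the group mean (line), sorafenib and water at each day. For Rps27l the sorafenib points lie below the water points at both days, for Rpl22l1 they do so at day 14, and for Rpl3l the groups overlap.

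Of the other paralog pairs, Rpl7l1 was at 46.1, 46.4 and 50.3 CPM with sorafenib, against 54.4, 57.0 and 55.4 CPM with water at day 14, with no overlap (-0.22 ± 0.12, adjusted p = 0.427). Its partner Rpl7 had -0.02 ± 0.16 at that day. At day 28 the log2 fold changes were -0.11 ± 0.16 for Rpl7l1 and -0.23 ± 0.20 for Rpl7. Rps4x had 0.01 ± 0.14 at day 14 and -0.31 ± 0.19 at day 28, and Rps4y2 had 0.45 ± 0.18 and 0.42 ± 0.26.

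Of members with a known part outside the plain structure of the ribosome, 0 passed at either day. Rplp0, the base of the stalk, was at 229, 288 and 292 CPM with sorafenib, against 268, 299 and 335 CPM with water at day 14, and its log2 fold change was -0.16 ± 0.16. Rpl5 and Rpl11, which together bind and inhibit Mdm2 when ribosome assembly fails, had 0.28 ± 0.18 and 0.37 ± 0.20 at day 14, and 0.10 ± 0.18 and -0.13 ± 0.21 at day 28. Rps6, the substrate of S6 kinase, had -0.07 ± 0.14 and -0.09 ± 0.18 at these days.

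Rps27a, made as a fusion with ubiquitin, had 0.29 ± 0.18 at day 14 and -0.15 ± 0.21 at day 28. Rpsa, also known as the laminin receptor, had -0.18 ± 0.17 and -0.22 ± 0.18. Rps14 had 0.08 ± 0.17 and -0.40 ± 0.21, and Rpl13a, known from human cells for a part in silencing messages of inflammation, had 0.02 ± 0.14 and -0.08 ± 0.20. By subunit, the median at day 28 was -0.20 over 35 members of the small and -0.22 over 49 of the large subunit, and at day 14 it was 0.03 over 34 and 0.07 over 47.

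More members were called between the days than between the treatments. In water hearts 49 of 84 members rose at day 28 against day 14 (58.3%, against 5.8% of all 18174 genes on that side and 8.51% in either direction), and 0 fell (2.7% of all genes). The median log2 fold change was 0.87, against -0.04 over all genes, and 82 of 84 members were positive, while 53.5% of all genes were negative. The groups did not overlap for 64 members on the higher side (76.2%, against 17.7% of all genes). Since each day has its own table, days of treatment and any difference in how the sets of libraries were made cannot be told apart. Remnants of ribosomal RNA also differed between the tables: in water hearts mt-Rnr2 took 0.0974% to 0.127% of counts at day 28, against 0.0244% to 0.0374% at day 14, and Rn45s 0.361% to 0.537%, against 0.0977% to 0.287%. Their part in the members' rise was not tested.

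Rpl35, a protein near the exit of the tunnel for new chains, had the largest change of all members in water hearts. It stood at 19.99, 28.4 and 42.8 CPM at day 28, against 3.65, 5.19 and 4.02 CPM at day 14 (log2 fold change 2.82 ± 0.34, adjusted p = 5.07e-04), and its exons overlap those of Wdr38. Rpl38 was at 47.05, 47.05 and 79.7 CPM at day 28, against 11.5, 8.40 and 6.73 CPM at day 14 (2.70 ± 0.33, adjusted p = 5.33e-04). Rpl27a was at 72.2, 79.8 and 123.6 CPM, against 13.9, 14.6 and 20.95 CPM (2.48 ± 0.24, adjusted p = 2.20e-04). For each of these genes the lowest library of day 28 lay at more than 3 times the highest of day 14.

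Rps28, a small-subunit protein at the exit of messenger RNA, was at 40.1, 42.0 and 63.3 CPM at day 28, against 8.29, 11.2 and 11.02 CPM at day 14 in water hearts (2.25 ± 0.22). Rplp2 followed with 2.15 ± 0.22, Rpl27 with 1.90 ± 0.25, Rpl23 with 1.89 ± 0.29 and Rpl24 with 1.87 ± 0.21. Rpl37 and Rpl31l4, at 2.67 ± 0.44 and 2.29 ± 0.54, were under 4 CPM in all water libraries and rest on few counts.

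A second set of members hardly differed between the days. Rplp1 was at 193, 248 and 272 CPM in water hearts of day 28, against 223, 238 and 242 CPM at day 14 (0.02 ± 0.18). Rps15a had -0.01 ± 0.18, Rpl30 had 0.03 ± 0.25, Rps27l had 0.06 ± 0.22 and Rpl10 had 0.11 ± 0.20. Of the 84 members, 41 were over 2-fold and 7 over 4-fold higher at day 28. The share of all genes past these folds was not counted. The stalk proteins Rplp1 and Rplp2 act as a pair. The day differences of their transcripts were 0.02 and 2.15 on the log2 scale, a contrast that was not tested.

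Rpl22l1 went the other way, at 26.1, 23.2 and 32.5 CPM in water hearts of day 28, against 36.4, 35.7 and 46.8 CPM at day 14 (-0.54 ± 0.19, adjusted p = 0.0981). Its partner Rpl22 rose by 1.1 ± 0.20 (adjusted p = 0.00512). The ratio of Rpl22l1 to Rpl22 averaged 0.788 ± 0.0989 in water hearts at day 28, against 2.44 ± 0.658 at day 14 (SD, n = 3 each). The ratio of Rps27l to Rps27 averaged 0.145 ± 0.0236 at day 28, against 0.475 ± 0.114 at day 14, with Rps27 at 1.72 ± 0.25 on the log2 scale.

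In sorafenib hearts, a comparison added after the water groups had been seen, 28 of 84 members rose at day 28 against day 14 (33.3%, against 2.27% of all genes) and 1 fell (1.19%, against 1.06%, with 3.32% of all genes called in either direction). The one that fell was Rpl22l1, at 13.5, 21.7 and 20.4 CPM at day 28, against 30.4, 32.4 and 38.2 CPM at day 14 (-0.91 ± 0.21, adjusted p = 0.0282). Rpl35, Rpl27a, Rps28 and Rpl38 had the largest values, at 2.11 ± 0.34, 2.03 ± 0.24, 1.73 ± 0.22 and 1.57 ± 0.33. The median of the members was 0.65. An unadjusted p under 0.05 came for 47 on the higher side (56%, against 10.3% of all genes) and 1 on the lower side (1.19%, against 8.8%).

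The 28 members called in both treatments are 57.1% of those called in water hearts and 96.6% of those called in sorafenib hearts. All 49 members that rose in water hearts also had values above 0 in sorafenib hearts. Across the 84 members the changes correlated with Pearson's r of 0.937, as a description over genes that share the libraries of each group. These shares and this correlation were not taken over all genes. Both treatments also share the difference between the tables of the days. Of the 29 calls in sorafenib hearts, the count fell to 11 when day 14 replicate 6 was left out, to 12 for day 28 replicate 4, and to 19 for either day 14 replicate 5 or day 28 replicate 2. Calls among all genes were 175, 197, 361 and 402 in these fits, against 604 with all libraries. In water hearts the count stayed between 39 and 52 when any one library was left out. Calls among all genes fell to 678 without water day 14 replicate 2 and to 558 without replicate 3, against 1546 with all libraries. The count of members was 39 in each of these fits.

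**Figure D5:**
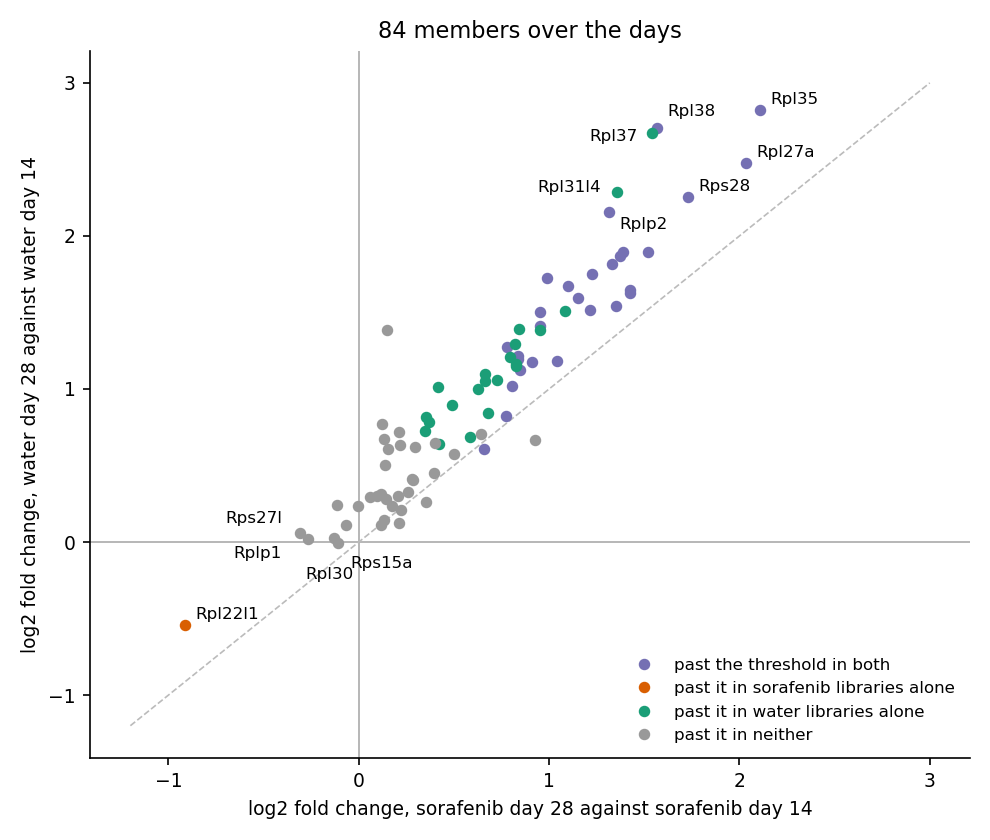
Log2 fold change of day 28 against day 14 in sorafenib hearts (horizontal) and water hearts (vertical) for 84 members, coloured by which comparison passed an adjusted p of 0.05, with the line of equal change dashed. Most members lie above 0 on both axes, Rpl35 lies at the upper end, and Rpl22l1 lies farthest below 0 on both.

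The members drew closer to each other in level at day 28. Over the 78 tested members with several exons, the range between the quartiles was 2.23-fold in sorafenib hearts and 2.11-fold in water hearts of day 28, against 2.99-fold and 3.29-fold at day 14. Members low per kilobase differed more between the days in water hearts than members at high levels (Spearman's rho = -0.458 over 84 members, as a description). The level used was averaged over libraries of both days, so this relation partly restates the narrower range at day 28. The relation to length was weaker (-0.255), and over all genes it was -0.168. The 2257 other genes of similar length, between 440 and 1328 bases, had a median log2 fold change of 0.15, and 13.1% of them were called higher. With the trend of each library with gene length removed, 42 members and 1305 genes in all were called in water hearts, against 49 and 1546 without that step. The TOP run stood at the start of 24 of 37 members that rose in water hearts (64.9%) and of 15 of 27 tested members that did not pass (55.6%).

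Genes of cytosolic ribosomal proteins outside the naming rule lay in the same range. With sorafenib averaged over the days, Fau had 0.08 ± 0.13, Rack1 -0.32 ± 0.12 (adjusted p = 0.133) and Rpl36al -0.04 ± 0.18, and 0 of these 3 passed. Between the days in water hearts Fau rose by 1.59 ± 0.19 and Rpl36al by 1.52 ± 0.26, while Rack1 had 0.05 ± 0.17 (adjusted p = 0.892). Rack1, a signalling scaffold on the small subunit, was thus at the lower end of the day difference together with Rplp1.

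Of the rest of the translation machinery, a list of elongation factors and other genes known for TOP tracts had 0 calls among 18 genes with sorafenib at either day or on average, with medians of 0.01 at day 14 and -0.11 at day 28. By the letters searched above, 6 of the 14 with a start sequence held the run (42.9%). Counts of this and the next lists over the days in water hearts stand beside 5.8% of all genes that rose and 2.7% that fell. Over the days in water hearts 5 of 18 rose and 0 fell (median 0.57), namely Btf3, Naca, Eef1g, Eef1b2 and Npm1. Initiation factors had 0 calls among 27 with sorafenib, and 25 of 27 had values below 0 on average (median -0.14, against -0.01 over all genes). The smallest p belonged to Eif4g2 (-0.46 ± 0.14, adjusted p = 0.0781) and the cap-binding Eif4e (-0.36 ± 0.12, adjusted p = 0.0891). Over the days in water hearts 5 of 27 rose.

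Among 77 genes of RNA polymerase I and of ribosome assembly, 0 passed with sorafenib (averaged median -0.01), with Ddx21 at -0.33 ± 0.09 (adjusted p = 0.0609) and Nob1 at 0.36 ± 0.11 (adjusted p = 0.0715). In water hearts 17 of 77 were higher at day 28 (median 0.27), for example Nop10 at 2.26 ± 0.38 and Sbds at 1.13 ± 0.16. Chaperones of ribosomal proteins gave 0 calls among 10 genes with sorafenib, with Tsr2 at -0.21 ± 0.11, and 0 over the days.

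In the list of mTOR and S6 kinase regulators 0 of 28 passed with sorafenib. Ddit4, an inhibitor of mTOR, was at 58.9, 101 and 64.1 CPM with sorafenib, against 41.9, 37.0 and 41.3 CPM with water at day 14, with no overlap (0.90 ± 0.19, adjusted p = 0.134). At day 28 it was at 101.2, 44.3 and 81.5 CPM with sorafenib, against 80.7, 111 and 128 CPM with water, so the groups overlapped. Rps6ka3 and Rps6ka2, kinases of the RSK family, had -0.36 ± 0.10 and -0.36 ± 0.11 on average (adjusted p = 0.0609 and 0.0747). Over the days in water hearts 5 of 28 rose, among them Eif4ebp1 (1.34 ± 0.19) and Myc (1.98 ± 0.25), and 1 fell, Rps6ka3 (-0.51 ± 0.14).

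The mitochondrial ribosome and the respiratory chain had values on the same side as the members at day 28 and between the days. Genes of mitochondrial ribosomal proteins had medians of -0.05 at day 14 and -0.32 at day 28 with sorafenib, with 0 of 73 called, and 22 of 73 rose over the days in water hearts (median 0.58). Nuclear genes of oxidative phosphorylation had medians of 0.13 and -0.40 with 0 of 87 called, and 42 of 87 rose over the days (median 0.85). No difference between these sets and the members was tested.

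In each list of cell type markers 0 genes passed with sorafenib at day 28. Of 10 markers of heart muscle cells, 10 had values below 0 at day 28 (median -0.20), and their sum was between 109756 and 176715 CPM with sorafenib, against 146771 and 210322 CPM with water. Of 16 myeloid markers 16 were below 0 (median -0.63), summing to 165 to 479.9 CPM with sorafenib, against 345 to 547 CPM with water. Of 12 fibroblast markers 11 were below 0 (median -0.26), with 2165 to 5640 CPM with sorafenib, against 3608 to 5621 CPM with water. Erythroid markers were below 0 in 7 of 10 (median -0.49), endothelial markers in 6 of 11 (-0.01), lymphocyte markers in 4 of 9 (0.17) and atrial markers in 3 of 5 (-0.57). Sln, an atrial marker, had 0 counts in the sorafenib libraries of day 28, and 0 other markers were at 0 in a whole group. The part of any of these in the members' values was not tested.

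At day 14, where the members had a median of 0.04, the myeloid markers were below 0 in 16 of 16 (median -0.72), and on average over both days 3 of 16 fell (C1qa, C1qb and Cybb). In that comparison Lum of the fibroblast list, Kdr and Emcn of the endothelial list and Dkk3 and Sln of the atrial list fell too. Between the days in water hearts, 2 of 10 heart muscle markers rose (Tnnt2 and Tnni3, median of the list 0.38), 0 of 16 myeloid markers passed (0.07), and 1 of 12 fibroblast markers rose (0.37). There 0 of 11 endothelial markers passed (0.04), and 2 of 10 erythroid markers rose, the globins Hba-a2 and Hba-a3. The part of these in the rise of the members was likewise not tested.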

How the data were processed

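Values are the read counts per gene that the authors deposited, made with featureCounts 2.0.1 in paired mode on a RefSeq annotation of mRatBN7.2, per the file headers, with no option for strand or for reads that match several places. The submitters' processing notes list STAR without its version. The kit is directional, per the labels, but no strand option stands in the headers, so reads of genes on opposite strands may be mixed. The tables hold 2 further count columns that no label names, left out here. A further item is not reported here.

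Groups came from the labels. The test over all genes was that of edgeR 4.0.16, run in R 4.3.3 (filterByExpr, TMM factors, robust quasi-likelihood test, Benjamini-Hochberg adjustment over all genes, threshold 0.05). Each day gave its own fit of sorafenib against water, and a fit of all 4 groups gave the average, the difference and both comparisons of the days. Each SE was taken as the ratio of the log2 fold change to the square root of F. CPM values are scaled over all 12 libraries. For each ratio 0.5 counts were added, and the exact permutation test moved labels within days. The code was tested on simulated data.

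Named members are those past the threshold, at most 10 per direction, the 5 highest and 5 lowest per comparison at a mean of 10 CPM or more, the ends of the level order, and fixed lists of paralogs and roles. From other lists those past the threshold or of smallest p are named. The members and lists were chosen with earlier results of these data known. Alternatives were DESeq2 1.42.0, RLE factors, TMM without the members, other filters (none, or 1 CPM in 3 libraries), no robust dispersion, removal of the trend with gene length (lowess span 0.3), each library left out, a fit of all groups, and the replicate number as a block. Same-numbered libraries of day 28 deviated together with correlations of 0.115, 0.00238 and 0.163, so the numbers were not taken as pairs. No library pair of a group agreed within sampling noise.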

Additional observations from a re-analysis of the deposited data

How the results depend on the processing

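Counts of members called with sorafenib stayed at 0 for either day and for the difference under every alternative run, while calls among all genes, 0 in each of these comparisons, reached 392 and 256 for the days with DESeq2, 87 and 82 with no filter, and 108 at day 28 with the replicate block. On average over both days the count was 0 to 2 when any one library was left out, 0 with both libraries of day 28 that stand apart left out, and 0 with the replicate block, where Rps27l had -0.59 (adjusted p = 0.262). In the other alternatives it was 1. The replicate block gave 47 calls over the days in water hearts and a member median of -0.21 at day 28, and 1 call, Rpl27a, over the days in sorafenib hearts (33 among all genes, against 604), whose groups share no number and are linked through the water groups. Sorafenib replicates 2 and 4 of day 28 correlated best with the water library of their own number and replicate 3 did not, a hint from the data and not the design. For the days in sorafenib hearts the count was 11 to 38 without any one library. The ratio of Rps27l to Rps27 had a log2 difference of -0.5492 with 5 counts added, -0.8361 at day 14 only, -0.4721 at day 28 only and -0.4721 with the replicate block at day 28, none past the threshold. The settings of a single day, the block included, could not pass, since the exact permutation test there has too few relabellings. Without any one library the log2 difference of Rps27l to Rps27 was -0.749 to -0.5718, and for Rpl22l1 to Rpl22 it was -0.5974 to -0.3384. That of Rpl39l to Rpl39 turned to -1.0353 at day 14 only. Signs turned for Rpl10l at day 28 (-0.9636 to 0.0989 without any one library, 0.2554 with both libraries left out), for Rpl3 (-0.1397 to 0.3867, -0.1053 with both left out) and for Rpl5 (-0.0137 to 0.244). The causes were not tested. In the shallow library 1 count equals 0.836 CPM, so members under a few CPM are not resolved there.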
